A study of Mus musculus with 44 samples.

Results

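The 8 genes described here encode the class I histone deacetylases Hdac1, Hdac2, Hdac3 and Hdac8 and the class IIa histone deacetylases Hdac4, Hdac5, Hdac7 and Hdac9 of the mouse. They were chosen by gene symbol, by matching the Ensembl identifiers of the deposited count table to the GENCODE annotation of GRCm38, and are 8 of the 55335 genes in that table. The rule uses gene symbols and no measured value, but the family was picked with earlier results of these data known. All 8 passed the filter on low counts in every comparison below, and their counts per library were between 407 and 18017.

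Histone deacetylases remove acetyl groups from the lysines of histone tails, a change associated with more compact and less transcribed chromatin. Class I enzymes are mainly nuclear and work as the catalytic subunits of corepressor complexes: Hdac1 and Hdac2 in the Sin3, NuRD and CoREST complexes and Hdac3 in the complex built on NCoR. Class IIa enzymes have weak catalytic activity of their own, bind transcription factors such as those of the MEF2 family, and move between nucleus and cytoplasm. Phosphorylation by calcium-dependent and related kinases lets 14-3-3 proteins hold them in the cytoplasm. In the hippocampus, Hdac2 and Hdac3 are known as brakes on the formation of long-term memory.

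The mRNA was captured by translating ribosome affinity purification (TRAP), which pulls down ribosomes carrying a tagged subunit together with the mRNA on them. All mice were male offspring of Emx1-IRES-Cre knock-in and NuTRAP parents, so that the tag was carried by cells that had expressed Emx1, and every group shared these alleles. Mice with early-life exercise (ELE) were housed in pairs and could use a wheel between postnatal days 21 and 41, whereas sedentary mice, also in pairs, had none. Simultaneous isolation of nuclei and ribosomes (SIT) used both hippocampi of a mouse combined, with 4 ELE and 4 sedentary libraries, whereas separate isolation used 1 hippocampus, with 3 ELE and 3 sedentary libraries from the left and 3 and 3 from the right.

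Each library came from 1 mouse and held between 45895097 and 65767802 counts. The summed level of 6 markers of excitatory neurons was between 6649 and 10202 CPM (counts per gene scaled to the same library total), and none of these markers was near 0. Astrocyte markers summed to between 1485 and 5123 CPM and oligodendrocyte markers to between 1979 and 4383 CPM, and the source of these reads was not tested. The Cre line is also active in neural progenitors. Of the 8 SIT libraries, the study compared 3 ELE and 2 sedentary ones. The left-out sedentary libraries NT7.2.3 and NT7.2.4 stood apart, with 8.64% and 9.64% of counts on mitochondrial genes, against 0.0704% to 0.523% in the 17 libraries compared. Their markers of microglia and interneurons were also higher, with sums of up to 178 and 840 CPM, against at most 6.76 and 75.8 CPM in the 17. Results from SIT are therefore given for the 5 libraries compared and, where they change, for all 8.

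Levels per kilobase of exon ordered the genes over the 17 libraries, and Hdac5 was the highest. Its level was 27.8 ± 5.11 CPM per kb (SD, n = 17), which was 1.78 times that of Hdac2, at 15.6 ± 1.5 CPM per kb. Hdac3 followed at 13.7 ± 0.997 CPM per kb. Hdac1 had 6.56 ± 0.860 CPM per kb and so lay 2.09-fold below Hdac3. The other class IIa genes and Hdac8 were lower, with 3.20 ± 0.598 CPM per kb for Hdac4, 2.91 ± 0.425 for Hdac9, 2.55 ± 0.364 for Hdac8 and 1.67 ± 0.256 for Hdac7.

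Some neighbours in this order lay clear of each other and some did not. Hdac5 was above Hdac2, Hdac3 above Hdac1 and Hdac1 above Hdac4 in 17 of 17 libraries, with ranges that did not overlap. Hdac2 was above Hdac3 in 14 of 17 libraries. Hdac4 was above Hdac9 in 11 of 17, Hdac9 above Hdac8 in 16 and Hdac8 above Hdac7 in 15, and the ranges of each of these pairs overlapped. The place of Hdac4 differed by isolation: it was above Hdac9 in 1 of 5 SIT libraries and in 10 of 12 separate ones. In SIT its mean of 2.65 CPM per kb lay below those of Hdac9 (3.24) and Hdac8 (2.74), and in separate libraries its mean of 3.42 lay above both (2.78 and 2.48). Over all 20 libraries the order by mean was the same, but Hdac5 was above Hdac2 in 18 of 20.

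**Figure D1:**
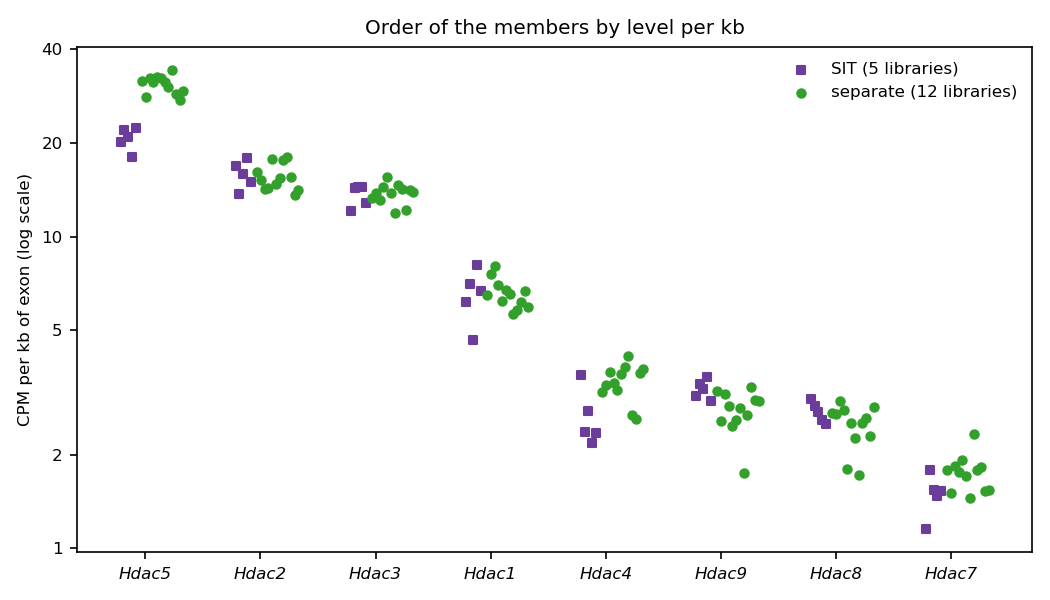
Level of each gene per kilobase of exon (CPM per kb, log scale) in the 17 libraries compared, with 1 point per library, squares for the 5 SIT libraries and circles for the 12 separately isolated ones. Hdac5 lies between 17.99 and 34.2 CPM per kb, above every other gene, and its SIT libraries form a lower group of points.

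The class I genes are described first. Hdac1, at chr4:129516104-129542713 on the minus strand, is the catalytic partner of Hdac2 in Sin3, NuRD and CoREST. Among the SIT libraries compared it had 21.2, 27.9 and 23.0 CPM in ELE and 24.3 and 16.1 CPM in sedentary mice. The left hippocampus gave 26.0, 21.3 and 19.4 CPM in ELE and 23.2, 24.1 and 20.5 CPM in sedentary mice, and the right gave 22.5, 20.1 and 22.4 against 23.0, 21.5 and 27.7 CPM. The ELE and sedentary ranges overlapped in all 3. A processed pseudogene, Gm10093, matched 1444 bases of the Hdac1 transcript at 99.4% identity, which makes the split of reads between them uncertain. It held 3 to 77 counts per library against 837 to 1726 for Hdac1. These counts do not show how many reads that match both were lost, so the level of Hdac1 carries this limit.

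Hdac2, at chr10:36974544-37001889 on the plus strand, was the second most abundant member. It had 75.6, 79.8 and 67.0 CPM in the ELE and 61.5 and 71.0 CPM in the sedentary SIT libraries compared. On the left, the ELE libraries had 67.7, 69.5 and 78.7 CPM and the sedentary ones 65.7, 64.2 and 63.0 CPM. All 3 ELE libraries were above all 3 sedentary ones there. On the right, ELE libraries had 69.1, 80.5 and 72.0 CPM and sedentary ones 60.6, 79.5 and 63.7 CPM, so that 1 sedentary library reached the ELE range.

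Hdac3, at chr18:37935844-37955016 on the minus strand, is the enzyme of the NCoR complex and had the smallest spread of the 8 over both isolations together, with a coefficient of variation of 7.28% over 17 libraries. It had 49.1, 58.6 and 51.9 CPM in ELE and 58.0 and 58.3 CPM in sedentary SIT libraries. The left gave 56.1, 49.5 and 59.5 CPM in ELE against 55.8, 58.6 and 56.3 CPM. The right gave 48.2, 57.5 and 53.9 CPM in ELE against 57.1, 62.8 and 53.2 CPM. Groups overlapped in each comparison.

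Hdac8, at chrX:102284639-102505359 on the minus strand, is the class I enzyme that works outside the large corepressor complexes and was the least abundant of the class. It had 14.5, 12.5 and 12.1 CPM in ELE and 13.8 and 13.3 CPM in sedentary SIT libraries. On the left it had 13.0, 12.7 and 8.32 CPM in ELE and 12.2, 13.4 and 13.7 CPM in sedentary mice. On the right it had 10.9, 12.2 and 13.2 CPM in ELE and 11.1, 8.68 and 14.4 CPM in sedentary mice. A single low library, of a different group on each side, widened the spread.

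Among the class IIa genes, Hdac4, at chr1:91928779-92195699 on the minus strand, had a coefficient of variation of 18.7% over the 17 libraries, just above the 18.4% of Hdac5, the largest values of the 8. These include the step between isolations. Within the 12 separate libraries Hdac4 had 13.3%, while Hdac5 had 6.70%, the smallest of the 8, and Hdac8 had 15.97%, the largest. Within the 5 SIT libraries Hdac4 had the largest value, 21.5%, and Hdac9 the smallest, 6.97%. Its SIT libraries had 56.7, 34.4 and 37.2 CPM in ELE and 37.3 and 43.5 CPM in sedentary mice. The left had 53.0, 41.0 and 65.5 CPM in ELE and 57.4, 53.7 and 59.6 CPM in sedentary mice. The right had 60.3, 42.3 and 50.3 CPM in ELE and 57.7, 51.0 and 58.0 CPM in sedentary mice. Most separately isolated libraries were above all but 1 of the SIT libraries compared.

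Hdac5, at chr11:102194432-102230166 on the minus strand, is the neuronal class IIa enzyme with the highest level here. It had 177, 158 and 196 CPM in ELE and 193 and 183 CPM in sedentary SIT libraries. The left had 247, 251 and 265 CPM in ELE and 284, 276 and 257 CPM in sedentary mice. The right had 274, 300.35 and 277 CPM in ELE and 241, 286 and 284 CPM in sedentary mice. Within each isolation the exercise groups overlapped, and every separately isolated library was above every SIT library.

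Hdac7, at chr15:97792664-97844502 on the minus strand, is known best from blood vessels and developing T cells and was the lowest member per kilobase. It had 7.77, 9.95 and 10.3 CPM in ELE and 12.1 and 10.4 CPM in sedentary SIT libraries, so that the ELE libraries lay just below the sedentary ones. The left had 10.2, 12.3 and 15.7 CPM in ELE and 11.5, 11.9 and 10.4 CPM in sedentary mice, and the right 9.82, 12.1 and 12.02 against 10.3, 13.0 and 12.4 CPM. The gene overlaps Slc48a1 on the opposite strand, which held 7091 to 14076 counts per library. Reads were counted by strand.

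Hdac9, at chr12:34047580-34917095 on the minus strand, is a further binding partner of MEF2 factors. It had 45.1, 51.9 and 43.6 CPM in ELE and 49.6 and 47.5 CPM in sedentary SIT libraries. The left had 37.5, 48.4 and 25.7 CPM in ELE and 38.0, 42.1 and 43.7 CPM in sedentary mice. The right had 41.3, 39.2 and 46.9 CPM in ELE and 44.0, 36.1 and 45.9 CPM in sedentary mice. The exercise groups overlapped in all 3 comparisons.

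**Figure D2:**
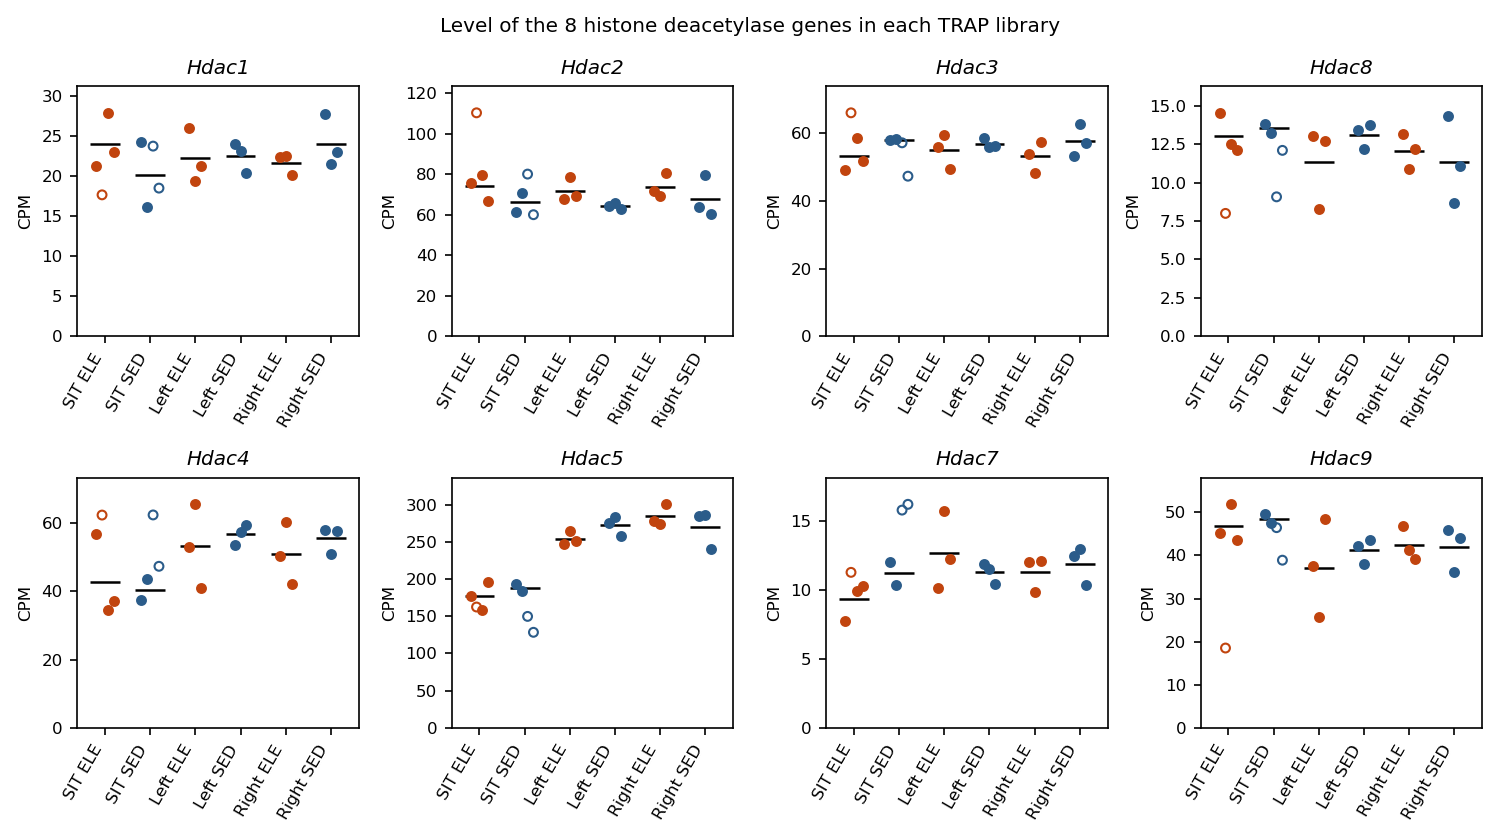
CPM of each of the 8 genes in the 20 libraries by group, in red for ELE and blue for sedentary (SED), with a line at the mean of the libraries compared and open circles for the 3 SIT libraries left out by the study. The SIT points of Hdac5 lie at or below 196 CPM and all of its left and right points at or above 241 CPM, while no member separates ELE from sedentary in every isolation.

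The comparison of ELE with sedentary mice asked whether early exercise changed the mRNA of these enzymes on ribosomes. A gene was called at an unadjusted p under 0.05 and a fold of more than 1.31 in either direction, as the study did, with Benjamini-Hochberg adjusted p-values computed beside. The study words its fold in more than 1 way. A fold of 1.3 gave the same number of members in each comparison. None of the 8 members passed in SIT (3 against 2 libraries), where 3.65% of all genes tested did. None passed in the left (background 2.07%) or in the right hippocampus (1.97%), each with 3 against 3, or over both hippocampi together (1.97%), with 6 against 6. By edgeR's quasi-likelihood test, 0 of 8 also had an unadjusted p under 0.05 in each of the 4 comparisons, against 5.48% of all genes in SIT, 3.94% on the left, 2.78% on the right and 5.37% over both. DESeq2 gave 0 of 8 under either rule. With a replicate block on how each mouse number begins, Hdac4 passed in SIT, at 0.49 on the log2 scale. In that fit both sedentary libraries and 1 of the 3 ELE libraries began with NT6 and the other 2 ELE libraries with TG7.4, so the difference set the ELE library NT6.303 (56.7 CPM) against NT6.305 and NT6.306 (37.3 and 43.5 CPM). In such bulk libraries, fewer cells of a type and less RNA per cell cannot be told apart.

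The widths of the intervals show what sizes these data leave possible. Over both hippocampi the 95% intervals of all 8 members lay inside the fold of 1.31. Hdac5 changed there by -0.01 on the log2 scale (SE 0.058), with an interval from -0.14 to 0.11, or from -8.98% to 8.14%. Hdac8 had the lowest bound, at -0.36, and Hdac2 the highest, at 0.29. In the left and in the right hippocampus alone, 4 of 8 intervals lay inside the fold, and in SIT 2 of 8, so a change larger than the fold used for calling remained possible for 6 members there.

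Hdac2 came closest to the threshold of p in the separately isolated libraries. Its log2 fold change was 0.14 (SE 0.068) over both hippocampi, or 10.4% higher in ELE, with an unadjusted p of 0.0544 and an adjusted p of 0.911 in edgeR. It was 0.16 on the left, 0.12 on the right and 0.16 in SIT, and so above 0 in each, with adjusted p-values in edgeR of 0.960, 0.9998 and 0.973. With all 8 SIT libraries the SIT value was 0.28 (adjusted p = 0.619 in edgeR). The left-out ELE library NT6.304 had 110 CPM of Hdac2. Hdac2 was 1 of 8 members whose groups did not overlap on the left, where 10.7% of all genes did not. Without 1 library at a time, the Hdac2 value ran from 0.06 to 0.27 in SIT and from 0.05 to 0.24 on the right. Leaving out each separately isolated library in turn moved its value over both hippocampi between 0.11 and 0.20 and its unadjusted p in edgeR between 0.00449 and 0.129. The lowest p came without the right sedentary library TG9.1.1, which had 79.5 CPM.

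Hdac7 had the largest difference in SIT, at -0.27 on the log2 scale (SE 0.20, adjusted p = 0.973 in edgeR). Its ELE and sedentary ranges did not overlap in the 5 SIT libraries, where 22.1% of all genes did not. With all 8 SIT libraries it was -0.48 (adjusted p = 0.519 in edgeR) and passed the study's threshold, as 7.7% of all genes did then, but the ranges overlapped. The 2 highest values, 15.8 and 16.2 CPM, were those of NT7.2.3 and NT7.2.4, which also stood apart in mitochondrial, microglial and interneuron reads. Red blood cell markers summed to 195 and 561 CPM in these libraries, against at most 30.6 CPM in the 17 compared. Endothelial markers summed to 14.9 and 15.2 CPM, above the 3.24 and 3.79 CPM of the sedentary SIT libraries compared but within the range of the 17, which was 1.89 to 27.8 CPM. The part of these in the result was not tested. The Hdac7 difference was 0.17 on the left and -0.07 on the right. Adjusted p-values in edgeR were 0.960 and 0.9998.

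The remaining differences were smaller over both hippocampi or changed sign between isolations. Hdac3 had a difference of -0.13 in SIT, which turned to 0.027 when all 8 SIT libraries were used. Its values were -0.05 for left hippocampi and -0.11 for right ones. Leaving out each library in turn moved the left value between -0.098 and 0.028, across 0. The right value stayed below 0, between -0.18 and -0.052. Hdac1 had a difference of 0.25 in SIT, or 0.12 with all 8 SIT libraries, and of -0.15 on the right. Without the sedentary SIT library NT6.305 its SIT value was 0.58, past the threshold, and without NT6.306 it was -0.01. Each of these leaves 1 sedentary library, which is assumed to vary like the ELE ones. Hdac8 lay at -0.20 on the left but at 0.09 on the right, and without the left ELE library TG9.1.4 the left value was -0.02. Hdac4 and Hdac9 were between -0.15 and 0.08 in SIT, left and right in the comparisons as designed, with all libraries compared and no block. With all 8 SIT libraries Hdac9 was at -0.20.

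**Figure D3:**
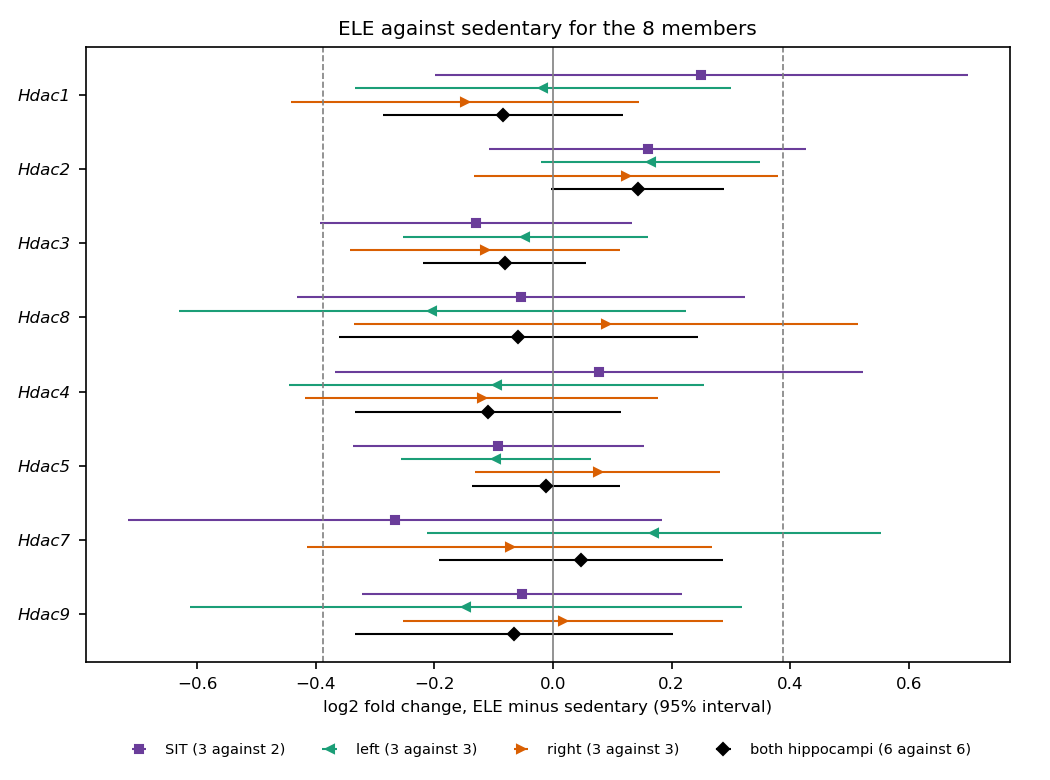
Log2 fold change of each gene, ELE minus sedentary, with its 95% interval from edgeR, in SIT, left, right and over both hippocampi, with dashed lines at the fold used for calling. All intervals include 0, and those over both hippocampi lie between -0.36 and 0.29.

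Whether exercise acted differently by hemisphere was tested with an interaction over the 12 separately isolated libraries. None of the 8 members passed, against 2.2% of all genes, and none had an unadjusted p under 0.05 in edgeR (2.6% of all genes) or in DESeq2. The largest interaction was that of Hdac8, 0.29 (SE 0.28), and that of Hdac5 was 0.17 (SE 0.11), with an adjusted p in edgeR of 0.99996 for both. Leaving out each library in turn moved the Hdac8 interaction between 0.11 and 0.50, that of Hdac5 between 0.10 and 0.22, that of Hdac7 between -0.37 and -0.07 and that of Hdac9 between -0.05 and 0.40, and no member passed in any of these fits. Left and right hippocampi were then compared with exercise in the model. No member passed there either, where 1.14% of all genes did, and differences, left minus right, ran from -0.10 for Hdac9 to 0.06 for Hdac8. None had an unadjusted p under 0.05 in edgeR (2.5% of all genes) or DESeq2.

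The study also set its 2 isolation methods side by side. The difference between SIT and separate isolation was fitted over 5 SIT and 12 separate libraries with exercise in the model. Isolation, combined or single hippocampi, and the mice themselves differed together between these groups and cannot be told apart. Of the 8 members 1 passed the threshold, Hdac5, which was lower in SIT. That was 1 of 8 against a background of 14.4% of all genes, of which 9.52% were lower, so the count itself does not set the members apart.

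Hdac5 fell by 0.56 on the log2 scale in SIT (SE 0.058, adjusted p = 1.18e-06 in edgeR), or by 32.1%, with an interval from -37.6% to -26.1%. Its 5 SIT libraries had a lowest, median and highest level of 158, 183 and 196 CPM. The 12 separate libraries had 241, 275 and 300.35 CPM. The ranges did not overlap, which was so for 7.39% of all genes. With all 8 SIT libraries the SIT range ran from 128 to 196 CPM and the difference was -0.67. In ELE mice alone it was -0.60 and in sedentary mice alone -0.51. Set against left hippocampi only it was -0.51 and against right hippocampi only -0.61. Leaving out each of the 17 libraries kept Hdac5 past the threshold, between -0.60 and -0.51.

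The other class IIa genes did not follow Hdac5 as a group. Hdac4 had a difference of -0.35 (SE 0.11, adjusted p = 0.0265 in edgeR). With Hdac5 it was 1 of 2 members with an adjusted p under 0.05, as 25.5% of all genes had, but its difference was short of the fold used for calling. It passed in sedentary mice alone (-0.46, adjusted p = 0.00662 in edgeR), without the ELE SIT library NT6.303 (-0.49) and without the left ELE library TG9.2.2 (-0.39). It did not pass in ELE mice alone (-0.28, adjusted p = 0.370 in edgeR). With all 8 SIT libraries its difference was -0.17 (adjusted p = 0.334 in edgeR). Hdac7 was -0.21 (adjusted p = 0.170 in edgeR) and -0.02 with all 8. In ELE mice alone Hdac7 was at -0.36 (adjusted p = 0.196 in edgeR) and in sedentary mice alone at -0.04. Hdac9 lay in the other direction, at 0.24 (SE 0.10, adjusted p = 0.0895 in edgeR), and at 0.07 with all 8.

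Most class I genes were close to 0 in the same comparison. Hdac1, Hdac2 and Hdac3 had differences of 0.00, 0.03 and 0.01 on the log2 scale, with SEs of 0.11, 0.064 and 0.058. With all 8 SIT libraries they were at -0.06, 0.13 and 0.01. In ELE mice alone Hdac1 was at 0.13 and in sedentary mice alone at -0.20. The intervals ran from -13.9% to 16.6% for Hdac1, from -6.98% to 11.8% for Hdac2 and from -7.52% to 9.39% for Hdac3. Hdac8 had 0.16 (SE 0.11, adjusted p = 0.336 in edgeR), and 0.00 with all 8 SIT libraries.

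**Figure D4:**
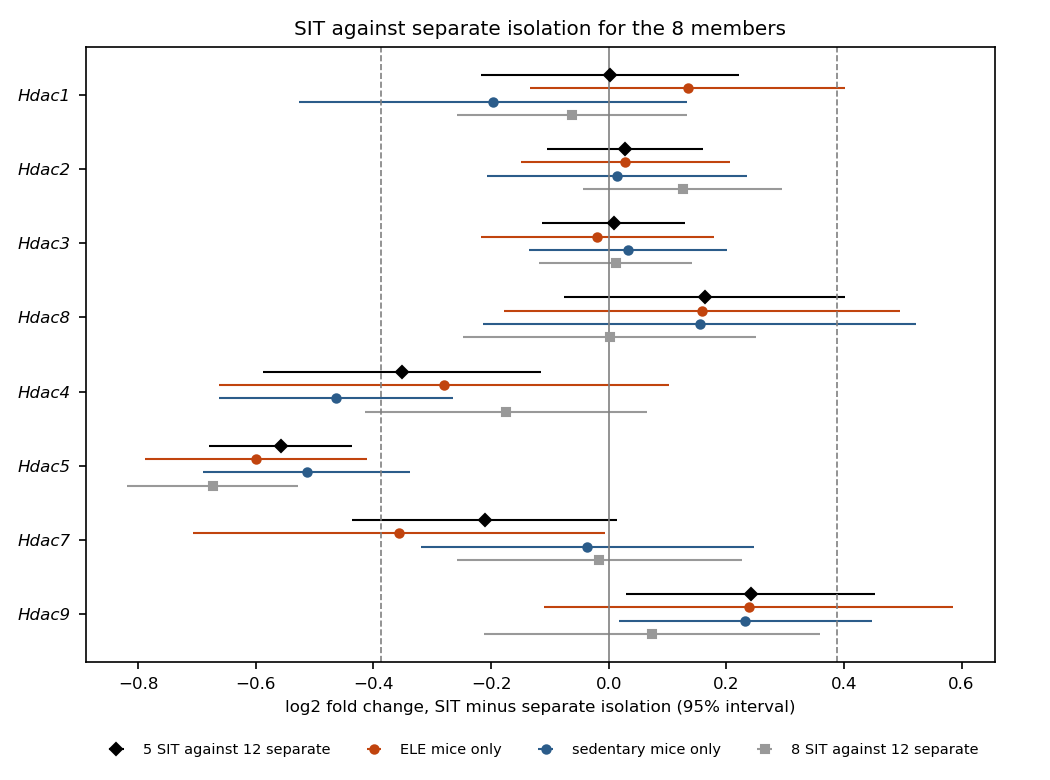
Log2 fold change of each gene, SIT minus separate isolation, with its 95% interval from edgeR, for the 17 libraries compared, for ELE mice and sedentary mice alone, and with all 8 SIT libraries; dashed lines mark the fold used for calling. Hdac5 lies between -0.67 and -0.51 in all 4, and Hdac1, Hdac2 and Hdac3 lie between -0.20 and 0.13.

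Hdac5 set the balance between the 2 classes. Summed per kilobase, the 4 class I genes had 38.8 ± 2.41 CPM per kb (SD, n = 5) in SIT and 38.3 ± 1.66 (n = 12) in separate libraries. The 4 class IIa genes had 28.1 ± 1.73 and 38.7 ± 2.03 CPM per kb. Class IIa thus made up 36.9% to 44.1% of the summed level in the SIT libraries compared, 34.7% to 44.1% in all 8, and 47.5% to 52.1% in the separate ones. Hdac5 alone made up 31.0% ± 2.83 and 39.9% ± 1.36.

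Other quantities moved with isolation as well. The threshold called 14.4% of all genes in this comparison, and a count of 1 in a marker list of 5 or 6 is near that share. Mitochondrial genes took 0.245% to 0.523% of counts in the 5 SIT libraries and 0.0704% to 0.122% in the 12 separate ones, which did not overlap. Excitatory neuron markers summed to 6649 to 7719 CPM in the SIT libraries compared and to 7861 to 10202 CPM in the separate ones, and 1 of the 6 passed the threshold, Camk2a, at -0.60. The list did not move 1 way: Slc17a7 was at -0.21, Neurod2 at 0.01, and Neurod6 and Prox1 at 0.32 each. Astrocyte markers fell in 4 of 5 genes (sums of 1682 to 3180 against 2204 to 5123 CPM), while 4 of 6 interneuron markers (63.7 to 75.8 against 40.7 to 75.03 CPM), 2 of 5 oligodendrocyte markers (2227 to 3325 against 1979 to 3137 CPM) and 4 of 5 red blood cell markers (3.89 to 30.6 against 2.42 to 11.5 CPM) rose. Microglia (2.94 to 5.17 against 2.19 to 6.76 CPM) had 0 of 5 markers past the threshold, by edgeR and with 0 at an unadjusted p under 0.05. Endothelial markers (1.89 to 3.79 against 2.46 to 27.8 CPM) had 1 of 5 lower, Tie1, which was at or under 3 counts in 8 of the 20 libraries. Choroid plexus markers had 0 of 5 past the threshold and 0 at an unadjusted p under 0.05 in edgeR, with sums of 124 to 652 CPM in SIT and of 17.3 to 1242 CPM in separate libraries. Across 18823 genes, the change with isolation had a Spearman correlation of -0.225 with exonic length and of -0.191 with the GC content of the longest transcript, given as a description since genes are not independent replicates. Hdac5 has 8780 bp of exon and 59.8% GC, against medians of 3747 bp and 49.7% over all genes. Hdac4, with 15813 bp and 52.5% GC, and Hdac7, with 6755 bp and 60.2% GC, had fitted values of -21.6% and -13.6% in SIT. Hdac9, with 14665 bp and 45.0% GC, had one of 18.2%. The part of cell types, mitochondrial share, length and GC content in the Hdac5 difference was not tested.

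The partners of the enzymes were read from lists of the complexes, kinases and binding proteins named above. Under ELE, the Sin3 list (13 genes), the NuRD list (12), the NCoR list (5), the MEF2 factors (4), the 14-3-3 proteins (7) and the histone acetyltransferases (9) had 0 genes past the threshold in SIT, left and right. In edgeR the only unadjusted p-values under 0.05 among these lists were those of 2 Sin3 genes and 1 NuRD gene on the left. Median log2 fold changes of the 6 lists were between -0.05 and 0.15 in these 3 comparisons, against medians of all genes between -0.0049 and 0.0035.

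The partner genes that did pass under ELE were few, and each passed in 1 of the 3 comparisons. In SIT, Sirt1, an NAD-dependent deacetylase, was higher by 0.49 (SE 0.21), Sirt5, a mitochondrial one, was lower by -0.55 (SE 0.22), and Camk2d, a calcium- and calmodulin-dependent kinase, was lower by -0.74 (SE 0.24). On the left, Sik1, a salt-inducible kinase that phosphorylates class IIa enzymes, was higher by 0.77 (SE 0.26), and Prkd1, encoding protein kinase D1, was lower by -0.44 (SE 0.12). On the right, Rcor2, a CoREST scaffold, was higher by 0.40 (SE 0.16). Sik1 also passed over both hippocampi, at 0.60 (SE 0.17), as 1 of 14 kinases, where 1.97% of all genes passed. It was at 0.41 (SE 0.21) in SIT and 0.44 (SE 0.21) on the right. Camk2d was at 0.63 (SE 0.34) on the left and 0.14 (SE 0.26) on the right, opposite in sign to SIT. Adjusted p-values of all of these in edgeR were 0.902 or higher. These were 2 of 10 other deacetylases and 1 of 14 kinases in SIT, 2 of 14 kinases on the left and 1 of 8 CoREST genes on the right. The shares of all genes past the threshold were 3.65% in SIT, 2.07% on the left and 1.97% on the right. Markers of red blood cells were lower in ELE in 4 of 5 genes in SIT, with sums of 3.89 to 12.4 CPM in ELE and 26.6 to 30.6 CPM in sedentary libraries. Choroid plexus markers were also lower there in 2 of 5 genes, Folr1 (-1.26) and Kl (-0.55), with sums of 124 to 558 CPM in ELE and 563 to 652 CPM in sedentary libraries, which did not overlap. Excitatory neuron markers summed to 7051 to 7719 CPM in the ELE and to 6649 to 6722 CPM in the sedentary SIT libraries, also without overlap. Prox1 was higher (0.46), 1 of these 6, with Neurod2 at 0.37 and Neurod6 at 0.22 under the fold. Endothelial sums did not overlap either (1.89 to 3.13 against 3.24 to 3.79 CPM), with 0 of 4 genes tested past the threshold and 0 at an unadjusted p under 0.05 in edgeR, and Pvalb was lower (-1.17), 1 of 6 for interneurons. In these 5 SIT libraries the ranges of 22.1% of all genes did not overlap, so sums without overlap do not by themselves set a cell type apart. On the left oligodendrocyte sums did not overlap (2301 to 2607 CPM in ELE against 2658 to 3072 CPM), as 10.7% of all genes did not. There 0 of 5 of these markers passed and 0 had an unadjusted p under 0.05 in edgeR. On the right red blood cell markers were lower in 3 of 4 genes tested (3.98 to 4.86 against 4.95 to 11.5 CPM), as were 3 of 5 endothelial (2.88 to 3.97 against 4.03 to 27.8 CPM) and 3 of 4 choroid plexus markers tested (17.3 to 42.4 against 34.0 to 1132 CPM), while 1 of 6 interneuron markers was higher (Slc32a1, 1.15) and 1 of 5 microglial markers lower (Cx3cr1, -1.65). Over both hippocampi Tie1 (-2.41, 1 of 5 endothelial markers) and Folr1 (-1.86, 1 of 5 choroid plexus markers) were lower. The part of all these markers in the values of the partner genes was not tested.

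More partners differed between SIT and separate isolation, where the threshold called 14.4% of all genes. The genes named here were chosen after their values were seen. In the NuRD list 4 of 12 genes fell, all 3 chromodomain helicases among them, with -0.50 for Chd3, -0.40 for Chd4 and -0.50 for Chd5, beside Mta3 at -0.40. Of the kinases 3 of 14 fell: Camk2a by 0.60, Prkd2 by 0.59 and Sik2 by 0.87. Among the 14-3-3 genes 4 of 7 rose, namely Ywhab by 0.64 (SE 0.048), Ywhaz by 0.52, Ywhah by 0.41 and Ywhaq by 0.41. Ywhae, at 0.3868, was just short of the fold of 1.31 and past that of 1.3, with which the count was 5 of 7. The list had a median of 0.41. Mef2c rose by 0.50, 1 of 4 MEF2 genes. The Sin3 list (13), the acetyltransferases (9) and the other deacetylases (10) had none past the threshold in edgeR, with 5, 4 and 3 genes at an unadjusted p under 0.05. Of all genes at least 25.5% were under that unadjusted p, since 25.5% had an adjusted p under 0.05. Whether these lists exceed the share of all genes was not tested. The median of all genes was -0.009.

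**Figure D5:**
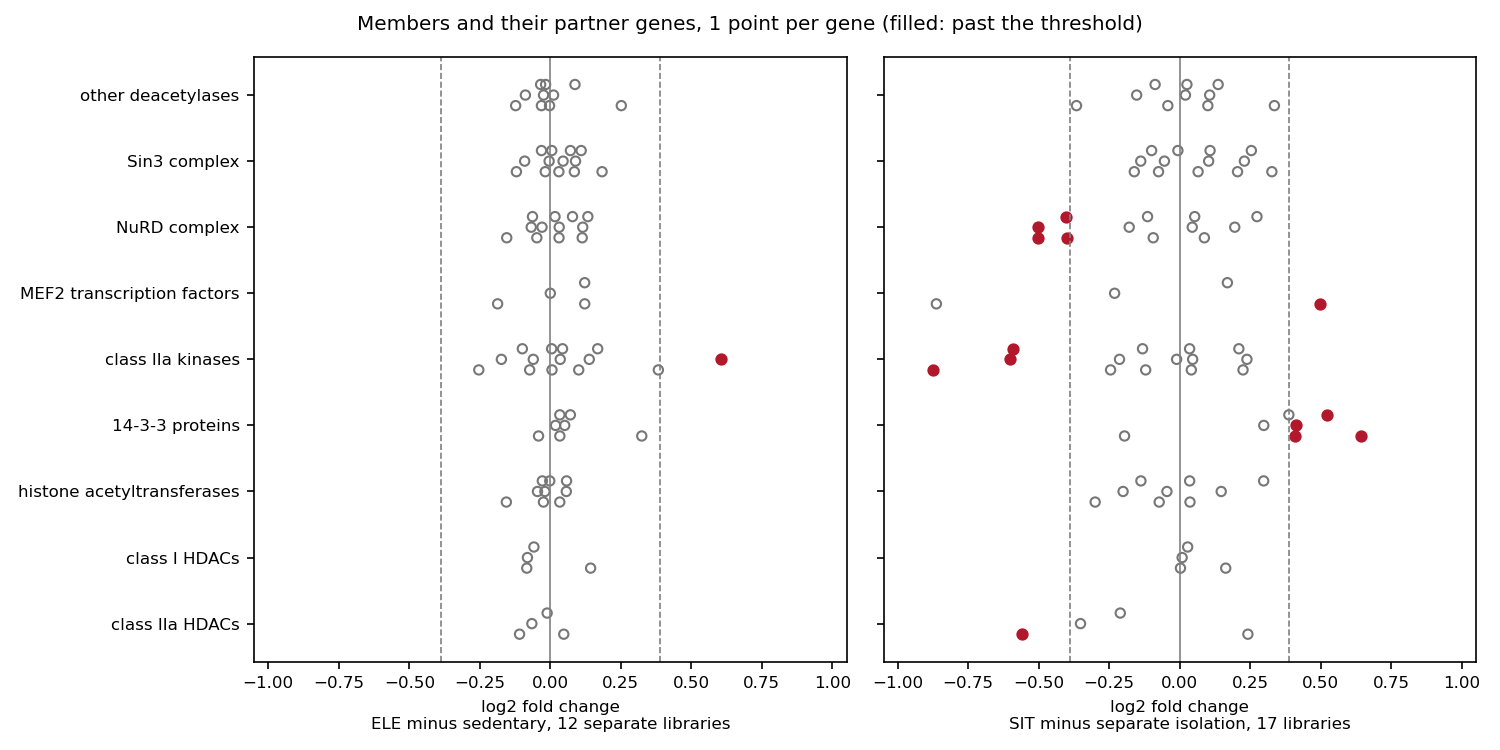
Log2 fold change of the genes of the partner lists named on the axis and of the 2 classes, 1 point per gene, for ELE minus sedentary over the 12 separate libraries (left panel) and for SIT minus separate isolation over 17 libraries (right panel); filled points passed the threshold and dashed lines mark its fold. In the left panel 1 gene is filled, Sik1 at 0.60, and in the right panel the filled points include Hdac5 at -0.56 and 4 of the 14-3-3 genes.

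Among themselves the members did not rise and fall as a block. Over the 17 libraries, the 28 pairs had Pearson correlations of log2 CPM from -0.57 (Hdac4 with Hdac9) to 0.75 (Hdac8 with Hdac9). Hdac8 and Hdac9 kept 0.76 over the 12 separate libraries alone. They were lowest in the same 3 of the 20 libraries: the left-out ELE SIT library NT6.304 (8.001 and 18.5 CPM), the left ELE library TG9.1.4 (8.32 and 25.7 CPM) and the right sedentary library TG9.1.1 (8.68 and 36.1 CPM). Hdac4 and Hdac5 had 0.57 over 17 libraries and -0.16 over the 12, and Hdac2 and Hdac8 had -0.44 and -0.61. These values are descriptions over points that share isolation, hemisphere and sequencing depth.

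The genes most like the members were sought among 10735 protein-coding genes averaging 5 CPM or more, by Pearson correlation of log2 CPM over the 17 libraries. Hdac5 was most like St3gal2 (0.98) and Brsk1 (0.97), and these fell to 0.76 and 0.77 over the 12 separate libraries, where the step between isolations is absent. Hdac8 was most like Evi2a (0.90) and Cys1 (0.87). Hdac2 was most like Sh3bp5 (0.88) and Neurod2 (0.87), a neuronal transcription factor, at 0.86 and 0.92 over the 12. Hdac9 had Rogdi (0.87) and Mpp2 (0.86), Hdac3 had Shtn1 (0.86), Hdac4 had Lifr (0.85) and Prag1 (0.85), which went to 0.72 and 0.58 over the 12, and Hdac1 had the lowest values, with Fam160a1 (0.79) and Ahcyl2 (0.78).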

How the data were processed

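TRAP-seq libraries were prepared from hippocampi of Emx1-NuTRAP mice with a directional kit. Per the labels and the study's methods, the authors checked reads with FastQC 0.11.9, aligned them to GRCm38 with STAR 2.7.3a, removed duplicates with Picard 1.87, and deposited raw counts per gene, made with GenomicAlignments from the read pairs that fell on its exons, strand included. Removing duplicates can lower the counts of highly expressed genes. The 20 columns carry mouse numbers, which the study's mouse list ties to groups. The 5 SIT libraries compared were identified among 24 subsets as the one whose mean normalized counts matched all 633 listed genes. The 24 columns of wild-type hippocampus are not used here, since no source links them to samples.

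Identifiers matched GENCODE for 54587 of 55335 genes with their version and for 55154 without it. Counts were filtered with filterByExpr, normalized with TMM and fitted with edgeR 4.0.16 (R 4.3.3) across all genes, using the quasi-likelihood test on the groups compared only. SEs were the absolute log2 fold change over the square root of F. Calls required an absolute log2 fold change over 0.3875 at p under 0.05, with Benjamini-Hochberg adjustment over all genes. CPM used TMM-scaled library totals over all genes, and correlations used log2(CPM + 0.5). Biological replicates were separate mice, and same-group pairs differed by more than counting error (chi-square per gene 18.9 to 422.5 over 24 pairs). The fits were tested on simulated data, with 1 spread between libraries set for all genes, which need not be that of these data. At a simulated log2 fold of 0.5, 59% of changed genes were recovered in SIT, 67% on the left and 69% on the right. The share was 69% over both hippocampi and 75% between isolations. Of unchanged genes 4.53% were called in SIT, 2.9% on the left, 3.17% on the right, 1.04% over both and 0.823% between isolations.

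Named genes were the 8 members, listed genes past the threshold under ELE in SIT, left or right (at most 4 per list), and the 2 genes most like each member; a few of these and of the partner genes are not reported here. Members, lists and tests were chosen with earlier results of these data known. Alternatives were DESeq2 1.42.0, median-of-ratios normalization, no filter, all 8 SIT libraries, leaving out each library, and a replicate block on each mouse number without its last part. In separate libraries each number occurred once per group, but most samples sharing it did not deviate together (correlation above 0.1 in 1 of 18 pairs), so it was not taken as a pairing. The exception was TG9.1.4 with TG9.1.1, at 0.30, above the highest pair with different numbers (0.14). Fits within ELE or sedentary mice and against left or right alone and calls at a fold of 1.3 were added after seeing the data.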

Additional observations from a re-analysis of the deposited data

Results flagged for a closer look

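In the 4 sedentary SIT libraries, Hdac3 had 47.3 CPM in the left-out library NT7.2.4, far from the other 3, which had between 57.2 and 58.3 CPM. The gap to the nearest was 0.904 of the whole range. Across the 16 gene and group combinations with 4 libraries this was the only value set apart in this way, and chance alone sets apart about 1 in 20. The library was not among those compared.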

How the results depend on the processing

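The p-values of the ELE comparisons rest on 2 or 3 mice per group in SIT, left and right, and calls at an unadjusted p are expected by chance. In all but 3 of the alternatives that leave out no single library, a fold of 1.3 among them (chosen after seeing the data), the count of members past the threshold, or the number at their own place in the order of levels, stayed within 1.5 times its main value. The exceptions were in SIT, where 1 member passed with all 8 SIT libraries (Hdac7) and 1 with the replicate block, the mouse number without its last part (Hdac4, 0.49, where the ELE arm that bears on the difference holds 1 library), and in the comparison of isolations, where 2 passed in sedentary mice alone. The block, which could not be fitted for isolation because each such number (TG7.4 or TG7.3, for example) occurs under 1 method only, changed no other call. The cause of these changes was not tested. Leaving out single libraries gave 0 to 1 members in SIT and 1 to 2 between isolations, and 0 in the other comparisons. In the order of levels, 6 of 8 members kept their place with the longest transcript as the length, as Hdac8 and Hdac9 changed places.

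Signs changed in values near 0. With all 8 SIT libraries, ELE differences became 0.027 for Hdac3, -0.0045 for Hdac4 and 0.079 for Hdac5, and with the block 0.11 for Hdac8 in SIT. Between isolations, Hdac1 became -0.00040 with DESeq2, -0.00020 with median-of-ratios normalization, -0.012 without a filter, -0.20 in sedentary mice, -0.024 against right hippocampi and -0.062 with all 8 SIT libraries. Hdac2 became -0.0097 against right hippocampi. Hdac3 became -0.0066 without a filter, -0.020 in ELE mice and -0.0013 against left hippocampi.

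Leaving out each library in turn gave these ranges where a sign or a call changed. In SIT, Hdac1 ran from -0.014 to 0.58 and Hdac4 from -0.18 to 0.22. On the left, the ranges were -0.16 to 0.080 for Hdac1, -0.098 to 0.028 for Hdac3, -0.26 to 0.064 for Hdac4, -0.00045 to 0.30 for Hdac7 and -0.38 to 0.065 for Hdac9. On the right, they were -0.00096 to 0.11 for Hdac5, -0.17 to 0.014 for Hdac7, -0.081 to 0.29 for Hdac8 and -0.092 to 0.087 for Hdac9. Over both hippocampi, they were -0.052 to 0.012 for Hdac5, -0.040 to 0.10 for Hdac7, -0.15 to 0.042 for Hdac8 and -0.16 to 0.038 for Hdac9. Between isolations, they were -0.084 to 0.11 for Hdac1, -0.0094 to 0.056 for Hdac2, -0.025 to 0.040 for Hdac3 and -0.49 to -0.29 for Hdac4. In the interaction, they were -0.23 to 0.0099 for Hdac1, -0.11 to 0.082 for Hdac2, -0.14 to 0.00034 for Hdac3, -0.18 to 0.14 for Hdac4 and -0.047 to 0.40 for Hdac9. Between left and right, they were -0.093 to 0.033 for Hdac1, -0.087 to 0.00012 for Hdac2, -0.014 to 0.048 for Hdac3, -0.027 to 0.12 for Hdac4, -0.042 to 0.095 for Hdac7 and -0.028 to 0.16 for Hdac8.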
